A study of Camellia sinensis with 24 samples.

Results

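Heme peroxidases are enzymes that use a heme group to reduce hydrogen peroxide while they oxidise another compound. In plants the family holds secreted enzymes of the cell wall, which couple the building blocks of lignin and cross-link phenolics and can also form reactive oxygen species, and ascorbate peroxidases, which remove hydrogen peroxide inside the cell. Secreted peroxidase genes usually have few exons and ascorbate peroxidase genes many. In Arabidopsis roots a secreted peroxidase is known to take part in the production of reactive oxygen species when potassium (K) is withheld. The family was taken here as every gene of the deposited expression table of tea (Camellia sinensis) roots whose description holds the Pfam peroxidase domain PF00141. This gave 140 of 48505 genes, of which 125 were annotated models and 15 were newly assembled by the authors and are given here by number. The description is the only annotation of these genes in the files, so no gene could be assigned to a class of peroxidase by name, and the exon number is given in its place. The annotated members had a median coding length of 999 bases, and 64 of the 125 had 3 or 4 exons, while 22 had 8 or more. In 11 members the model carried another domain beside the peroxidase domain, so that their reads may come from a second gene. No sequence of these genes was used here.

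The roots came from “1511” and “1601”, both chosen from the offspring of a cross of Longjing 43 with Baihaozao, the first for tolerance of low K and good root growth and the second for intolerance of low K. Cuttings aged 1 year grew in hydroponic boxes with the root system split over 2 compartments. All of them had spent 60 days in full nutrient solution before the K treatments began, so the 60 days are not the length of the treatments. The 4 conditions in each genotype were Sp.SK, the side without K (0 mM K2SO4) of a box whose other side had K; Sp.NK, that other side (1 mM K2SO4); U.SK, roots of a box without K on both sides; and U.NK, roots of a box with K on both sides. Each condition had 3 libraries in each genotype, 24 in all, made from root RNA of the plants of a box. Each genotype stands for 1 seedling multiplied by cuttings, so a difference between “1511” and “1601” is a difference between these 2 plants. The labels name the libraries as replicates without saying that they came from separate boxes. The p-values therefore measure the spread between libraries, estimated for each gene over all 24 together. Replicates of “1511” mostly spread more than those of “1601”, as given below. A shared spread is thus not equally strict in the 2 genotypes, and counts of calls are not directly comparable between them. In bulk roots, fewer cells of a type and less RNA per cell cannot be told apart.

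The libraries held 13214833 to 26309637 counted reads (median 18066086), and replicates correlated with r between 0.923 and 0.982 across genes. Members varied more between replicates than genes at large. Their biological coefficient of variation, the replicate spread beyond counting error as a fraction of the mean, was 0.481 to 0.599 in the groups of “1511” and 0.293 to 0.575 in those of “1601”, against 0.275 to 0.389 and 0.176 to 0.302 over all genes. In each of the 8 groups, the library that was most often the lowest of the 3 was so in 38 to 47 of the 100 to 105 members that varied, and the library most often the highest in 41 to 59. The highest of these counts were for Sp.SK replicate 1 of “1511” (highest in 59 of 103) and U.NK replicate 3 of “1511” (highest in 51 of 102). Summed levels of marker genes also differed between groups. Genes of dividing cells (184 genes with MCM, kinesin motor or cyclin domains, 142 of them tested) summed to 1697 to 1999 CPM in Sp.SK and 1305 to 1478 CPM in U.SK of “1511”, and to 1924 to 2527 CPM over all libraries of “1601”. Genes with the Casparian strip membrane protein domain (42, of which 32 were tested) were listed for differentiated endodermis. The domain alone does not show that each of them is active in that tissue. They summed to 908 to 1618 CPM in Sp.SK and 2568 to 2929 CPM in U.SK of “1511”. Gene by gene this list ran the other way, with 9 of the 32 higher and 1 lower in Sp.SK (median log2 fold change 0.34), so it gives no direction for the endodermis. Genes of green tissue (31 genes with chlorophyll-binding or rubisco small subunit domains, 27 of them tested) summed to 353 to 540 CPM in “1511” and 526 to 1989 CPM in “1601”. The part of these lists in the results on peroxidases was not tested.

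Levels within the family were uneven. Of the 140 members, 11 had a mean above 100 FPKM (fragments per kilobase of gene length, scaled to library size) over the 24 libraries, 37 lay between 10 and 100 FPKM, 39 between 1 and 10 FPKM and 53 under 1 FPKM. The length is the coding length in annotated members. Newly assembled members have no marked coding part, so their FPKM rest on another kind of length. The 8 highest, TEA029025, TEA028180, the newly assembled gene 3114, TEA026035, TEA017140, TEA014809, TEA019211 and TEA028696, together held 58.2% of the summed FPKM of the family (52.9% to 65.9% in single libraries). TEA029025 led with a mean of 517 FPKM. It is a 3-exon gene on scaffold 869 (bases 1801702 to 1803152, minus strand, in the coordinates of the authors' table, which follow the tea genome of the tpia website). The next were TEA028180 with 356 FPKM, the newly assembled gene 3114, with 10 exons, with 352 FPKM, and TEA026035, a gene of 12 exons, with 310 FPKM. A test needed enough reads, which 105 members had, and 35 had too few to be tested, among them 5 with no read at all.

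In CPM (counts-per-million, scaled between libraries), the family's sum was lowest on a different root side in each genotype. In “1511” the sum was 4146 ± 599 CPM in Sp.SK, 4965 ± 619 CPM in Sp.NK, 2637 ± 256 CPM in U.SK and 4151 ± 517 CPM in U.NK (SD, n = 3 each). The 3 U.SK libraries, at 2341 to 2795 CPM, lay under all 9 other libraries of “1511”, the lowest of which had 3516 CPM. In “1601” the sum was 3764 ± 286 CPM in Sp.SK, 6042 ± 396 CPM in Sp.NK, 4567 ± 106 CPM in U.SK and 5101 ± 500 CPM in U.NK. Here the Sp.SK libraries were the low ones, at 3563 to 4091 CPM, under the 4491 CPM of the lowest other library. The sum is dominated by the 8 highest members and was given no test.

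**Figure D1:**
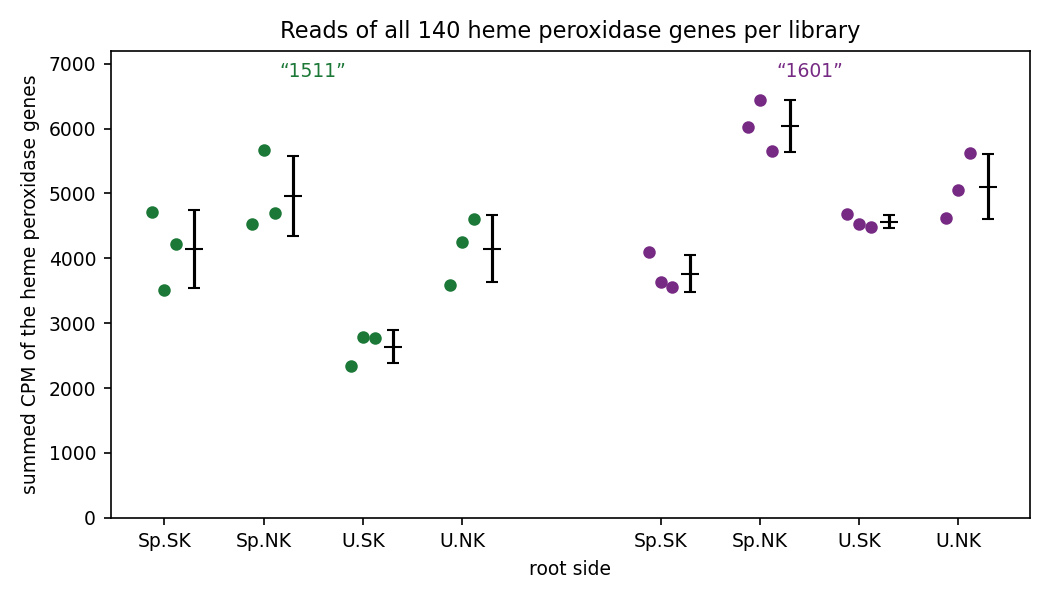
Summed CPM of the 140 heme peroxidase genes in each library (points), with the mean and SD of 3 libraries (bar and whiskers), by root side for “1511” (left) and “1601” (right). The U.SK libraries are lowest in “1511” (2341 to 2795 CPM) and the Sp.SK libraries are lowest in “1601” (3563 to 4091 CPM).

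Setting Sp.SK against U.SK asks what roots without K express when another side of the same plant has K, rather than none. In “1511” the peroxidases were mostly higher on the K-free side of split roots. Of 105 tested members 38 rose and 3 fell (adjusted p under 0.05, edgeR quasi-likelihood test), where 31.1% of all 35557 tested genes were called, 17.4% higher and 13.8% lower. The median log2 fold change was 1.04 over the members and 0 over all tested genes. The family's sum in Sp.SK, 4146 CPM, was near the 4151 CPM of U.NK, while U.SK was low at 2637 CPM. The same U.SK libraries of “1511” also enter U.SK against U.NK, the comparison of genotypes on U.SK and the difference between genotypes below. Those results are therefore not independent of this one. The count fell to 23 members without U.SK replicate 1 and to 25 without Sp.SK replicate 1, with 22 and 24 of them higher. Among the 8 highest genes, 4 rose. One of them was TEA028696, of the study's primer list, which had 174, 128 and 110.4 CPM in Sp.SK and 31.5, 47.7 and 39.8 CPM in U.SK, a log2 fold change of 1.79 ± 0.33 (SE; adjusted p = 0.000908). The 2 groups of libraries did not overlap. For TEA017140 the levels were 363, 276 and 157 CPM in Sp.SK and 116, 78.0 and 67.0 CPM in U.SK (1.61 ± 0.40, adjusted p = 0.00602). The other 2 were gene 3114, with 10 exons, which rose by 1.10 ± 0.28 (adjusted p = 0.00592) and TEA026035, with 12 exons, which rose by 0.61 ± 0.22 (adjusted p = 0.0371), the second call being lost without Sp.SK replicate 1 (adjusted p = 0.137). Of the rest, TEA029025 and TEA028180, and TEA014809 were not called, and their groups overlapped.

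The largest fold change among members of at least 1 CPM belonged to TEA010147, a 4-exon gene on scaffold 1539 (bases 321001 to 323986, minus strand). It had 27.9, 19.0 and 17.1 CPM in Sp.SK and 0.817, 0.779 and 0.325 CPM in U.SK of “1511”, a log2 fold change of 5.08 ± 0.81 (adjusted p = 0.000364). Every Sp.SK library was above every U.SK library by more than 10 CPM. TEA000222, a 5-exon gene on scaffold 3023, had 54.0, 103 and 28.0 CPM in Sp.SK and 2.62, 5.45 and 1.82 CPM in U.SK (4.23 ± 0.93, adjusted p = 0.00267). TEA028298, which has 11 exons and was singled out after its values were seen, had 109, 74.0 and 79.7 CPM in Sp.SK and 4.41, 6.93 and 4.68 CPM in U.SK (4.03 ± 0.49, adjusted p = 0.000111). None of these genes had overlapping groups. TEA017509, also singled out after its values were seen, had no read in the 3 U.SK libraries and 57 reads over the 3 Sp.SK libraries, at least 10.7-fold higher against a floor of 3 reads over the group. Only 3 members fell. TEA019211, a 9-exon gene and the seventh most abundant, had 92.2, 111 and 119 CPM in Sp.SK and 183, 177 and 206 CPM in U.SK (-0.81 ± 0.21, adjusted p = 0.00811). TEA018635, with 11 exons, fell by 0.78 on the log2 scale (adjusted p = 0.0294, and 0.17 without U.SK replicate 1). The other was TEA030817, with 16 exons, whose groups overlapped and where U.SK replicate 1 was at 23.0 CPM and the other U.SK libraries at 11.8 and 3.77 CPM.

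In “1601” the same comparison ran mostly the other way. Of the 105 members 4 rose and 15 fell on Sp.SK against U.SK, where 6.82% of all tested genes were called, 2.58% higher and 4.24% lower, and the median was -0.41 over the members and 0 over all genes. The count was 8, 10, 9 and 10 without Sp.SK replicate 1, Sp.SK replicate 2, U.SK replicate 1 or U.SK replicate 2. TEA005755, a 4-exon gene on scaffold 3668 and of the primer list, was the lowest by fold change. In “1511” it had 3.81, 0.913 and 4.86 CPM in Sp.SK and 0.736, 0.623 and 1.04 CPM in U.SK (1.99 ± 0.62, adjusted p = 0.0205), and in “1601” it had 0.213, 0.196 and 0.467 CPM in Sp.SK and 5.00, 2.84 and 1.70 CPM in U.SK (-3.37 ± 0.67, adjusted p = 0.00645). The groups did not overlap in “1601” and overlapped in “1511”, where Sp.SK replicate 2 lay within the U.SK range. The newly assembled gene 4727 fell, with 0.107, 0.491 and 0.679 CPM in Sp.SK and 4.80, 3.85 and 3.95 CPM in U.SK of “1601” (-3.25 ± 0.67, adjusted p = 0.008). The abundant TEA014809, a 4-exon gene on scaffold 717, had 70.0, 105 and 138 CPM in Sp.SK and 327, 275 and 286 CPM in U.SK (-1.50 ± 0.33, adjusted p = 0.0113). The members that rose were TEA017156, a 13-exon gene (1.95 ± 0.52, adjusted p = 0.0308), TEA011115 (1.64 ± 0.42, adjusted p = 0.0245), TEA008609 and TEA006313. TEA017156 was low, at 1.65, 1.77 and 1.70 CPM in Sp.SK and 0.263, 0.350 and 0.682 CPM in U.SK.

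The difference between the genotypes in this comparison was itself tested. It was called for 35 members, all of them higher in “1511”, where 14% of all tested genes were called, 9.15% in that direction and 4.86% in the other. The count was 22 without U.SK replicate 1 of “1511”. The median difference was 1.67 on the log2 scale over members and 0.04 over all genes. By sign alone, 49 members were higher in “1511” and lower in “1601”, 32 were higher in both, 15 lower in both and 7 lower in “1511” and higher in “1601”, while 2 had a fold change of exactly 0 in one genotype. Members called in both genotypes were few. TEA005755 and TEA010633 rose in “1511” and fell in “1601”, and TEA008609 and TEA006313 rose in both (2 of the 38 that rose in “1511” and 2 of the 4 that rose in “1601”). TEA010147 differed most, by 6.55 ± 1.03 (adjusted p = 0.000683), with 7.78, 15.6 and 6.91 CPM in Sp.SK and 21.1, 31.1 and 31.7 CPM in U.SK of “1601”. TEA012891, a 4-exon gene on scaffold 1154 and of the primer list, differed by 4.71 ± 0.63 (adjusted p = 0.000239). It had 6.70, 4.69 and 4.35 CPM in Sp.SK and 0.409, 0.701 and 0.195 CPM in U.SK of “1511”, and 3.73, 3.68 and 4.20 CPM in Sp.SK and 6.97, 5.69 and 12.4 CPM in U.SK of “1601”. The U.SK libraries of “1511” were the low ones among these 4 groups.

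**Figure D2:**
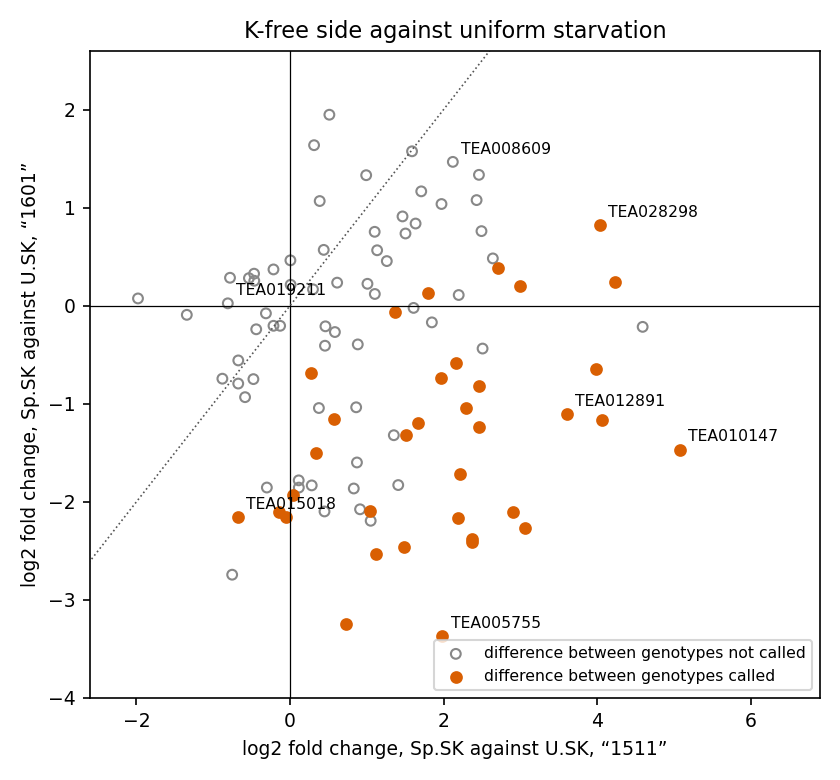
Log2 fold change of Sp.SK against U.SK in “1511” (x axis) and in “1601” (y axis) for 100 tested heme peroxidase genes, leaving out 5 with no read in one of the groups. Filled points are genes whose difference between genotypes was called, and all lie below the dotted line of equal change, with TEA010147 farthest to the right and TEA005755 lowest.

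Uniform starvation was compared with uniform K supply through U.SK against U.NK. In “1511” peroxidases fell: 21 of 105 were lower and 1 higher, where 7.84% of all tested genes were called, 5.88% lower and 1.96% higher. The median was -0.76 over members and 0 over all genes, and 16.2% of members, against 48.5% of all genes, had a log2 fold change above 0. Counted without a test, 30 members (28.6%) had all U.SK libraries below all U.NK libraries, against 10% of all genes. The count of calls rested on few libraries. With U.NK replicate 3 left out it was 2, with U.SK replicate 1 left out 6, with U.NK replicate 1 left out 13 and with U.SK replicate 2 left out 14. It was 0 when the spread was estimated from the 12 libraries of “1511” alone and 40 by limma voom. TEA010147 had 0.817, 0.779 and 0.325 CPM in U.SK and 4.90, 1.68 and 25.2 CPM in U.NK (-4.06 ± 0.81, adjusted p = 0.00643, and 0.0787 without U.NK replicate 3). TEA028696 kept its call without any one library, with 31.5, 47.7 and 39.8 CPM in U.SK and 168, 67.5 and 179.9 CPM in U.NK (-1.80 ± 0.33, adjusted p = 0.00464). Both genes had separate groups, but the U.NK libraries differed widely among themselves. TEA014821, a second gene of scaffold 717, had 0, 0.623 and 0.130 CPM in U.SK and 0.877, 0.898 and 9.50 CPM in U.NK, a fall of 3.88 on the log2 scale (adjusted p = 0.0341, and 0.471 without U.NK replicate 3). TEA017140 fell by 1.33 (adjusted p = 0.0466, and 0.354 without U.NK replicate 3). In U.NK replicate 2, TEA000222 and TEA023936 had 1.62 and 2.93 CPM, under the highest U.SK library of each gene, while the other U.NK libraries were at 30.0 and 72.4 CPM for TEA000222 and 26.4 and 23.3 CPM for TEA023936.

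In “1601” no gene of the table was called in U.SK against U.NK (0% of 35557 by edgeR). At an unadjusted p under 0.05 there were 2 members and 1024 genes in all, and no alternative method called a member. The difference between genotypes in this comparison was called for 1 member, where 0.45% of all genes were called (0.0141% higher and 0.436% lower in “1511”). This was TEA021445, the single-exon gene on scaffold 1504 (bases 1549400 to 1550395), with a difference of -2.58 ± 0.54 (adjusted p = 0.0385). It had 0.817, 0.545 and 0.520 CPM in U.SK and 2.27, 1.14 and 4.60 CPM in U.NK of “1511”. In “1601” it had 4.41, 4.59 and 6.53 CPM in U.SK and 3.90, 2.99 and 4.23 CPM in U.NK. In “1511” every U.SK library was under every U.NK library, and in “1601” every U.SK library was above every U.NK library. No member was called when any one of 13 libraries was left out: U.NK replicates 1 and 3, Sp.NK replicate 1, Sp.SK replicate 2, and U.SK replicates 1 and 2 of “1511”, and U.NK replicates 1, 2 and 3, Sp.NK replicate 3, Sp.SK replicate 2, and U.SK replicates 2 and 3 of “1601”. The count was 3 without either Sp.NK replicate 2 or U.SK replicate 3 of “1511”, 4 without its Sp.NK replicate 3 and 18 without its U.NK replicate 2.

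The 2 sides of a split root were compared directly through Sp.SK against Sp.NK. In “1511” no gene was called (0% of 35557 by edgeR). At an unadjusted p under 0.05 there were 2 members and 1698 genes in all, and no alternative method called a member. In “1601” 15 of the 105 members fell on the K-free side and none rose, where 1.34% of all tested genes were called, 1.31% lower and 0.0337% higher. All 15 had Sp.SK libraries below every Sp.NK library. Counted without a test, 38 members (36.2%) had all Sp.SK libraries below all Sp.NK libraries, against 8.97% of all genes. The count of calls depended on single libraries, being 1 without Sp.SK replicate 1, 3 without Sp.SK replicate 2 and 4 without either Sp.NK replicate 1 or Sp.NK replicate 2. The difference between genotypes was called for no gene (0% of 35557), with 24 members and 2290 genes in all at an unadjusted p under 0.05; DESeq2 called 1 member and limma voom 2. A side difference in “1601” was therefore not shown to differ from that in “1511”.

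The lowest fold change among the 15 was that of TEA021704, a 2-exon gene on scaffold 615, which had 0.0533, 0.442 and 0.636 CPM in Sp.SK and 9.15, 6.38 and 5.19 CPM in Sp.NK of “1601” (-4.13 ± 0.84, adjusted p = 0.0147). Another 4 of the 15 lie on scaffold 3668 within 2 groups of neighbouring peroxidase genes, TEA005749, TEA005759, TEA005760 and the untested TEA005752 between bases 346051 and 441452, and TEA005761 and TEA005755 between bases 609980 and 616497. TEA005759 had 0.160, 2.50 and 4.37 CPM in Sp.SK and 44.2, 36.0 and 27.5 CPM in Sp.NK (-3.91 ± 0.85, adjusted p = 0.0224). TEA005755 had 0.213, 0.196 and 0.467 CPM in Sp.SK and 4.45, 4.76 and 3.34 CPM in Sp.NK (-3.78 ± 0.67, adjusted p = 0.0075). In both, every Sp.SK library was under every Sp.NK library. TEA005749 and TEA005761, described after their values were seen, fell by 3.77 and 3.79 on the log2 scale (adjusted p = 0.0407 and 0.0276). Sp.SK replicate 1 was the lowest library of TEA005749, at 0.639 CPM beside 9.33 and 19.1 CPM in the other Sp.SK libraries. TEA005760 was not called, at 0.0533, 0.540 and 0.806 CPM in Sp.SK and 5.27, 2.98 and 3.02 CPM in Sp.NK (adjusted p = 0.0721). Neighbouring copies can share reads if they are alike, and how the authors counted such reads is not given in the sources used here, so these genes are not independent observations.

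TEA021599, a 4-exon gene on scaffold 2513 that is in the study's primer list, was also lower on this side of “1601”, with 0.639, 4.81 and 16.7 CPM in Sp.SK and 107, 102 and 56.4 CPM in Sp.NK (-3.57 ± 0.84, adjusted p = 0.0353). TEA001789, an 8-exon gene, had 1.12, 4.67 and 8.02 CPM in Sp.SK and 34.9, 26.8 and 33.4 CPM in Sp.NK (-2.77 ± 0.65, adjusted p = 0.0347). In TEA021599 and TEA001789 alike the groups did not overlap, and Sp.SK replicate 1 was again the lowest library. The 2 most abundant peroxidases lay just outside the threshold on Sp.SK against Sp.NK of “1601”. In “1511” TEA029025 had 343, 309.5 and 565 CPM in Sp.SK and 438, 1211 and 169 CPM in Sp.NK, and the groups overlapped. In “1601” it had 72.7, 125 and 269 CPM in Sp.SK and 901, 815 and 719 CPM in Sp.NK (adjusted p = 0.0511). TEA028180 of “1601” had 127, 233 and 272 CPM in Sp.SK and 768, 964 and 607 CPM in Sp.NK (adjusted p = 0.0574).

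**Figure D3:**
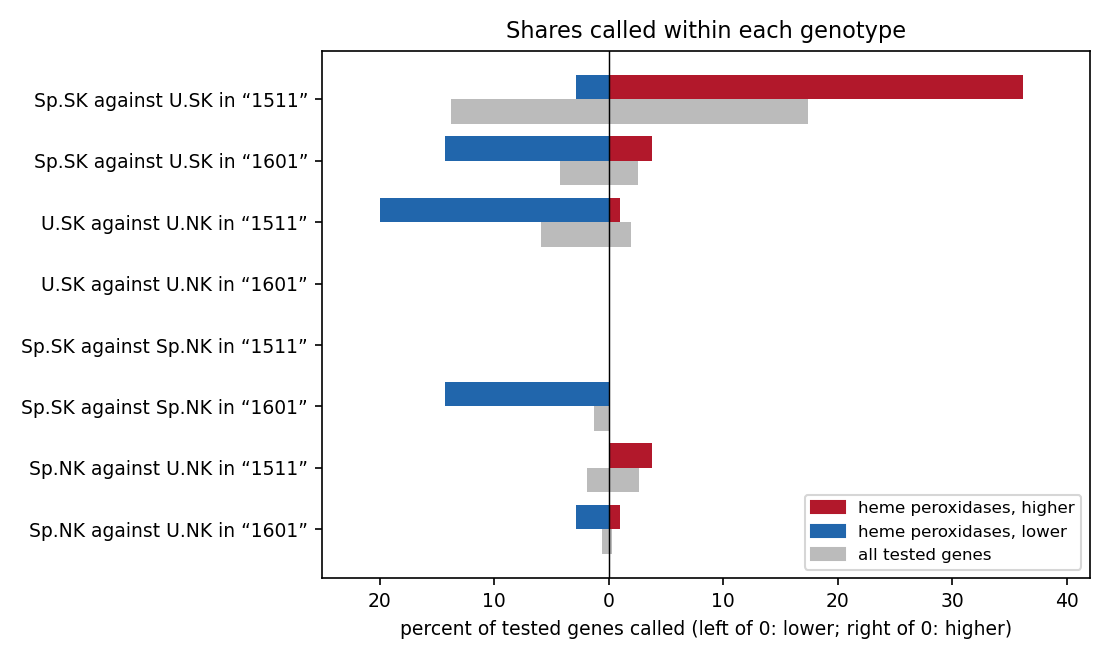
Percent of the 105 tested heme peroxidase genes (coloured) and of all 35557 tested genes (grey) called higher (right of 0) or lower (left of 0) in the 4 comparisons within each genotype. Coloured bars above the grey ones include Sp.SK against U.SK in “1511” (36.2% and 17.4% higher) and in “1601” (14.3% and 4.24% lower). They also include U.SK against U.NK in “1511” (20% and 5.88% lower) and Sp.SK against Sp.NK in “1601” (14.3% and 1.31% lower). Coloured bars under the grey ones include Sp.SK against U.SK in “1511” (2.86% and 13.8% lower).

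The side with K of a split root was compared with uniform K supply through Sp.NK against U.NK. In “1511” 4 members rose and none fell, where 4.61% of all tested genes were called, 2.67% higher and 1.94% lower. They were TEA001789 (2.19 ± 0.63, adjusted p = 0.0493), TEA012891 (1.58 ± 0.40, adjusted p = 0.0353), TEA008609 and TEA007319. The share of members called, 3.81%, was near that of all genes. The count was 0 without U.NK replicate 1, U.NK replicate 2, Sp.NK replicate 2 or Sp.NK replicate 3, 7 without Sp.NK replicate 1 and 16 when U.NK replicate 3 was left out. In “1601” 1 member rose and 3 fell, where 0.9% of all tested genes were called, 0.281% higher and 0.619% lower, and the count was 2 without either U.NK replicate 2 or Sp.NK replicate 1. The genotypes differed in this comparison for 1 member, TEA015018, where 0.231% of all genes were called (0.174% higher and 0.0562% lower in “1511”). That count was 9 when U.NK replicate 3 of “1511” was left out, and 0 without U.NK replicate 1, Sp.NK replicate 2 or Sp.NK replicate 3 of “1511”, or without U.NK replicate 1, 2 or 3, or Sp.NK replicate 1 or 3 of “1601”.

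The 4 members called in Sp.NK against U.NK of “1601” were also called in Sp.SK against U.SK of that genotype. TEA008609, a short 2-exon gene on scaffold 3460 (bases 163251 to 163994), rose on both sides in both genotypes. In “1511” it had 3.33, 1.52 and 2.15 CPM in Sp.SK and 0.327, 0.623 and 0.649 CPM in U.SK (2.12 ± 0.37, adjusted p = 0.000656), and 1.99, 2.12 and 2.77 CPM in Sp.NK and 0.516, 0.599 and 1.40 CPM in U.NK (1.46 ± 0.34, adjusted p = 0.0301). In “1601” it had 14.3, 17.1 and 12.5 CPM in Sp.SK and 6.18, 4.94 and 4.77 CPM in U.SK (1.47 ± 0.29, adjusted p = 0.00625), and 26.1, 27.4 and 21.4 CPM in Sp.NK and 7.73, 5.10 and 6.42 CPM in U.NK (1.96 ± 0.29, adjusted p = 0.00438). In none of these pairs did the groups overlap. The call in Sp.NK against U.NK of “1511” was lost without U.NK replicate 2 of “1511” (adjusted p = 0.169). It was also lost in the edgeR fit of the 12 libraries of “1511” (adjusted p = 0.156). Its difference between genotypes was not called for Sp.SK against U.SK (0.65 ± 0.47, adjusted p = 0.375) or for Sp.NK against U.NK (-0.51 ± 0.45, adjusted p = 0.714).

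TEA015018 and TEA015011 are neighbours on scaffold 313, in a run of 4 peroxidase genes with TEA015008 and TEA015004, and both fell on both sides of split roots in “1601”. In “1511” neither gene was called in any comparison of conditions. There TEA015018 had 7.97, 7.97 and 8.42 CPM in Sp.SK, 6.96, 11.3 and 7.35 CPM in Sp.NK, 11.5, 8.49 and 18.8 CPM in U.SK and 7.84, 10.8 and 7.63 CPM in U.NK. In “1601” TEA015018 had 1.12, 0.884 and 0.806 CPM in Sp.SK and 3.75, 5.21 and 3.56 CPM in U.SK (-2.16 ± 0.31, adjusted p = 0.000954), and 0.818, 1.15 and 0.966 CPM in Sp.NK and 4.05, 6.04 and 3.32 CPM in U.NK (-2.19 ± 0.31, adjusted p = 0.00419). TEA015011 had 14.6, 11.9 and 9.54 CPM in Sp.SK and 38.8, 41.9 and 57.0 CPM in U.SK (-1.93 ± 0.29, adjusted p = 0.00117), and 10.9, 16.9 and 15.9 CPM in Sp.NK and 38.7, 67.0 and 34.7 CPM in U.NK (-1.68 ± 0.29, adjusted p = 0.0103). The genotypes differed for TEA015018 in both comparisons (1.48 ± 0.41, adjusted p = 0.023, and 2.15 ± 0.42, adjusted p = 0.0358, the second lost without U.NK replicate 1 of “1511”, adjusted p = 0.133), and for TEA015011 in Sp.SK against U.SK (1.97 ± 0.41, adjusted p = 0.0045). The remaining member that fell on both sides in “1601” was TEA015805, named after its values were seen, with 8.47, 6.58 and 6.36 CPM in Sp.SK and 31.8, 27.9 and 35.8 CPM in U.SK.

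**Figure D4:**
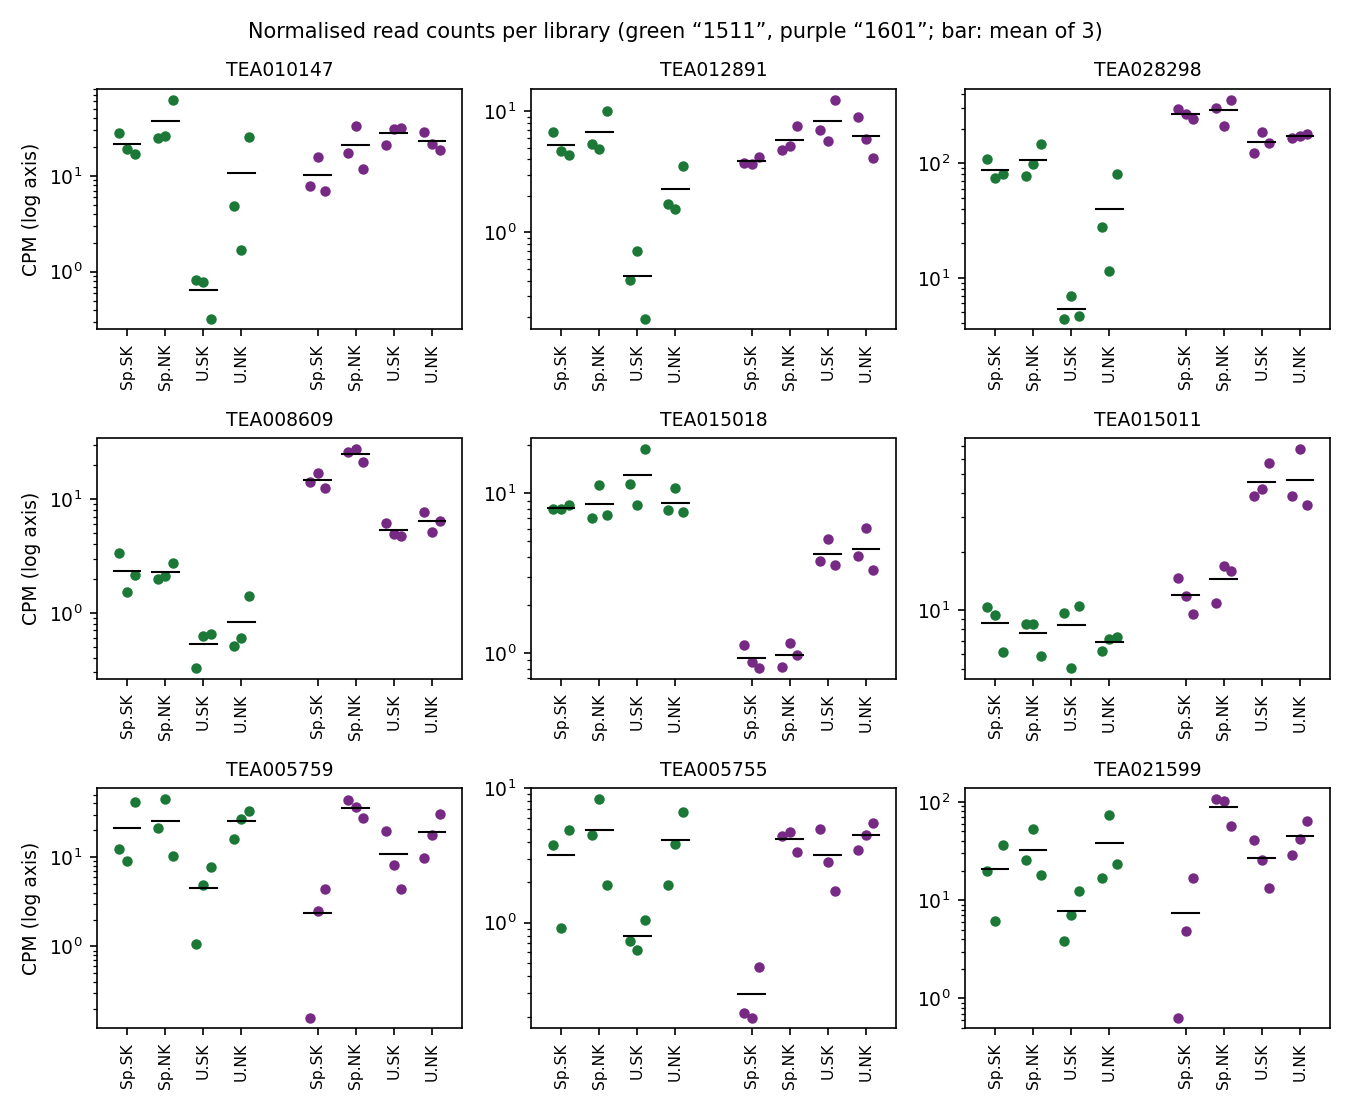
CPM of 9 heme peroxidase genes in every library (log axis; bars are means of 3), by root side for “1511” (green, left) and “1601” (purple, right). TEA010147, TEA012891 and TEA028298 are lowest in U.SK of “1511”, TEA008609 is higher in Sp.SK and Sp.NK than in U.SK and U.NK of each genotype, and TEA015018 and TEA015011 are lower in Sp.SK and Sp.NK of “1601”.

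Between the genotypes, most of the members called were lower in “1511” on U.SK, U.NK and Sp.NK. On U.SK 56 members were lower and 7 higher in “1511” than in “1601”, where 54.3% of all tested genes were called, 29.4% lower and 24.8% higher, and the median was -1.27 over members and -0.08 over all genes. On U.NK 20 were lower and 9 higher, where 29.8% of all genes were called (15.5% lower, 14.3% higher). On Sp.SK 11 were lower and 11 higher, where 29.5% of all genes were called (14.8% lower, 14.6% higher). On Sp.NK 17 were lower and 4 higher, where 25.5% of all genes were called (13% lower, 12.4% higher), and 13 were called without Sp.NK replicate 3 of “1511”. In either direction the share of members called was 60% on U.SK, near that of all genes, and 27.6% on U.NK, 21% on Sp.SK and 20% on Sp.NK, near or under it.

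Among the tested members, a pair had no read in any of the 12 libraries of “1511”. The newly assembled gene 8313, with 8 exons on scaffold 3619 (bases 1281243 to 1286703), had 42 to 187 reads per library in Sp.SK of “1601” and 141 to 213 in U.NK, so that “1511” was at least 127-fold lower on Sp.SK and at least 198-fold lower on U.NK, with a floor of 3 reads over the group. TEA017242, with 4 exons on scaffold 489 (bases 707335 to 709984), was at least 66.3-fold lower on Sp.SK and at least 38.2-fold lower on U.SK of “1511”. Both were called lower in all 4 conditions. They had enough reads for a test only through “1601”. A call could therefore only be lower in “1511”, and these calls add nothing to the missing reads. TEA008609 was also lower in “1511” in all 4, with log2 differences from -2.62 on Sp.SK to -3.44 on Sp.NK. In the other direction, TEA015018 was higher in “1511” in all 4 conditions, by 3.11 ± 0.32 on Sp.SK and 3.11 ± 0.31 on Sp.NK (adjusted p = 2.29e-07 and 2.28e-07). Its neighbour TEA015011 was lower in “1511” on U.SK, U.NK and Sp.NK. TEA019103, with 7 exons, was higher in “1511” on U.SK (1.46 ± 0.26, adjusted p = 0.000102) and on U.NK (1.24 ± 0.26, adjusted p = 0.000937), with 13.2, 13.5 and 14.4 CPM in U.SK of “1511” and 4.01, 6.56 and 4.29 CPM in U.SK of “1601”. TEA027831 was higher in “1511” on U.NK (1.73 ± 0.43, adjusted p = 0.00456).

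On Sp.SK the newly assembled gene 6358 was far higher in “1511”, with 48.9, 20.9 and 6.78 CPM there and 0.746, 0.491 and 1.31 CPM in “1601” (4.88 ± 0.77, adjusted p = 5.71e-05). TEA023936, a 4-exon gene on scaffold 9064 that is in the study's primer list, had 26.2, 15.2 and 10.4 CPM on Sp.SK of “1511” and 4.64, 2.85 and 3.01 CPM in “1601” (2.31 ± 0.62, adjusted p = 0.00792). Neither gene had overlapping groups on this side. TEA023936 was also higher in “1511” on Sp.NK and U.NK, and it was not called on U.SK, where its libraries had 2.53, 3.04 and 5.65 CPM in “1511” and 0.921, 5.03 and 3.60 CPM in “1601”.

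Members were also counted by exon number, a split that was added after the data had been seen and was given no test. In Sp.SK against U.SK of “1511”, 17.4% of all tested genes rose and 13.8% fell, and small counts near these shares say nothing about a class. Of 52 tested genes with 3 or 4 exons 17 rose and none fell (median 1.04). Of 19 with 8 or more exons 7 rose and 3 fell (median 0.30), the 3 being near the share of all genes. The 3 members that fell were all in the second class, and so was TEA028298, among those that rose. Of 21 annotated genes with another exon number 11 rose (median 1.97), and of 13 newly assembled genes 3 rose (median 1.10). In the same comparison of “1601”, 2.58% of all tested genes rose and 4.24% fell. There 1 of the 52 genes with 3 or 4 exons rose and 10 fell (median -0.84), and 2 of the 19 with 8 or more exons rose and none fell (median 0.17). Between genotypes on U.SK, 34 of the 52 with 3 or 4 exons were lower in “1511” and 3 higher (median -1.77). Of the 19 with 8 or more exons 6 were lower and 3 higher (median -0.23). Of all tested genes 29.4% were lower and 24.8% higher there, and the 6 of 19 were near that share. TEA000543, a 9-exon gene named after its values were seen, stayed between 54.0 and 78.5 CPM in all 24 libraries. Of the 9 tested members with a second domain, 2 were called in Sp.SK against U.SK of “1511”.

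**Figure D5:**
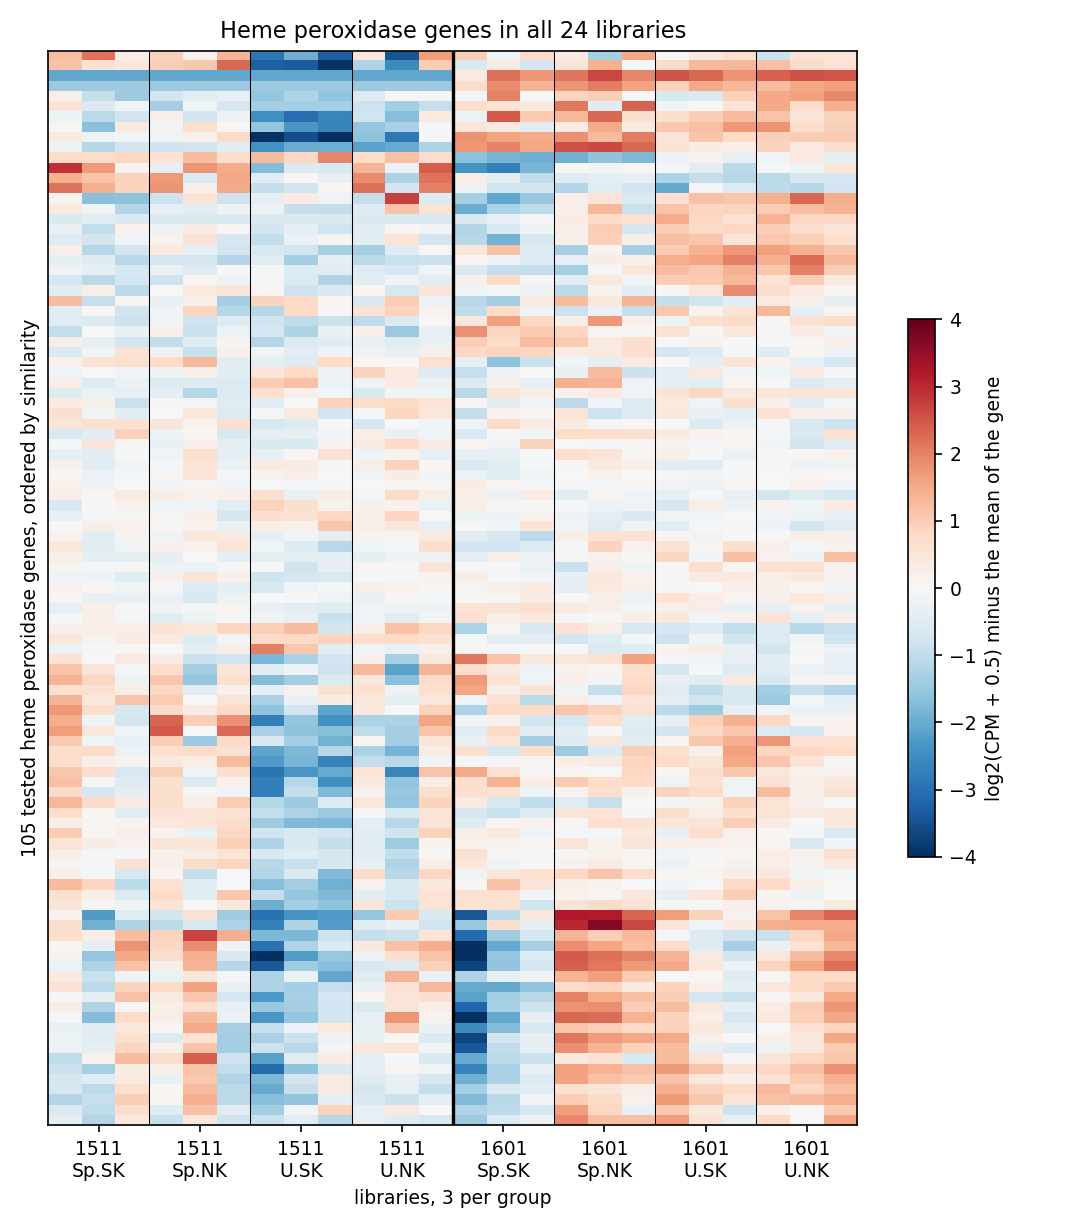
Log2(CPM + 0.5) of the 105 tested heme peroxidase genes in all 24 libraries, minus the mean of each gene, with genes ordered by similarity and a thick line between “1511” (left) and “1601” (right). The 3 U.SK libraries of “1511” are low (blue) for many genes, and in “1601” a block of genes at the bottom is low in Sp.SK and high (red) in Sp.NK.

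Other families around peroxidase chemistry, listed by Pfam domain, were counted in the same fits. In Sp.SK against U.SK, 17.4% of all tested genes were higher and 13.8% lower in “1511”, and 2.58% higher and 4.24% lower in “1601”, and small counts near these shares say nothing about a family. Multicopper oxidases, which include the laccases that also couple lignin units, had 61 tested members, of which 24 rose and 1 fell in Sp.SK against U.SK of “1511”, and 12 fell and none rose in the same comparison of “1601”. On Sp.SK against Sp.NK of “1601” 7 of them fell, where 1.31% of all genes did. Phenylalanine ammonia-lyases, which open the pathway to lignin and other phenolics, rose in 5 of 7 in Sp.SK against U.SK of “1511” and fell in 1 of 7 in “1601”. Of 26 tested dirigent proteins, which guide the coupling of phenolic radicals, 13 rose and none fell in “1511”, and 2 rose and 1 fell in “1601”. Some proteins with the Casparian strip membrane protein domain anchor the peroxidases of the endodermal barrier in Arabidopsis. Of the 32 tested genes with this domain, 9 rose and 1 fell in “1511” and 1 rose and 1 fell in “1601”. Respiratory burst NADPH oxidases, which supply superoxide, rose in 1 of 7 in “1511” and fell in 3 of 7 in “1601”. Among enzymes that remove reactive oxygen, all 5 tested catalases fell in Sp.SK against U.SK of “1511” and none was called in “1601”. Of 12 superoxide dismutases, 1 fell in “1511” and 1 rose in “1601”, and of 10 glutathione peroxidases 2 rose in “1511” and 1 rose in “1601”. Dividing-cell markers moved with the peroxidases in “1511”, with 73 of 142 higher and 8 lower, and in “1601” 2 were higher and 1 lower. Several lists were also lower in “1511” than in “1601” on U.SK, where 29.4% of all genes were lower and 24.8% higher. Of 61 multicopper oxidases 33 were lower and 1 higher, and of 142 dividing-cell genes 85 were lower and 17 higher. All 7 phenylalanine ammonia-lyases and 20 of 26 dirigent proteins were lower and none higher. Catalases went the other way, with 4 of 5 higher and none lower.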

How the data were processed

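Root RNA of 24 libraries (8 groups of 3) was sequenced. The authors aligned reads with HISAT2 2.0.5 to the tea genome of the tpia website and deposited whole-number counts per gene with gene descriptions, and FPKM values. The counting program and the version of that genome are not given in the sources used here, and the tables had 0 further columns of per-sample values. The deposited counts were tested with the edgeR 4.0.16 quasi-likelihood test (R 4.3.3) after TMM scaling and edgeR's filter on low counts, in 1 fit of 8 group means over 24 libraries (16 residual degrees of freedom), with Benjamini-Hochberg adjustment over 35557 genes. Calls required an adjusted p under 0.05, with no minimum fold change, as in the study's methods. CPM are TMM-scaled. The deposited FPKM served only for levels between members. In total 16 comparisons were made: 8 within and 4 between genotypes, and 4 differences between genotypes in a comparison. The test was also run on simulated data that gave each gene 1 spread in all groups. That run cannot show how unequal spreads between groups act on the calls.

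Newly assembled genes are given by the number in their identifier. Named members were the 8 of highest mean FPKM, in each of the 12 comparisons the 2 highest and 2 lowest fold changes among called members with a mean of at least 1 CPM and no overlap of libraries, the highest and lowest called of each difference between genotypes at that level, and the 5 members in the study's primer list (TEA021599, TEA023936, TEA028696, TEA012891 and TEA005755). Members and lists were chosen with earlier results of these data known. Members were also required, as 1 alternative added later, to hold no other domain. Other alternatives were DESeq2 1.42.0 size factors and test, limma 3.58.1 voom with quality weights, no filter, fits on fewer libraries, a replicate block and leaving out each library. Genes that lack reads in a whole group were given a bound from a floor of 3 reads over that group, which covers counting error only. No member identifier matched the RefSeq table (0 of 140).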

Additional observations from a re-analysis of the deposited data

Results flagged for a closer look

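For 17 named results the 2 genotypes differed in the same comparison by the test of the difference itself (“1511” minus “1601”, log2 scale, edgeR, adjusted p under 0.05). In U.SK against U.NK this was TEA021445 (-2.58). In Sp.SK against U.SK these were TEA010147 (6.55), TEA005755 (5.36), newly assembled gene 6358 (5.33), TEA014821 (5.24), TEA021704 (4.75), TEA012891 (4.71), TEA005759 (4.35), TEA000222 (3.99), newly assembled gene 4727 (3.97), TEA001789 (3.33), TEA021445 (3.28), TEA015011 (1.97), TEA014809 (1.84), TEA028696 (1.67) and TEA015018 (1.48). In Sp.NK against U.NK this was TEA015018 (2.15). The values for TEA021445 in U.SK against U.NK and TEA015018 in Sp.NK against U.NK lost their calls without single libraries (adjusted p = 0.155 without U.NK replicate 3 of “1511” and 0.133 without its U.NK replicate 1).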

How the results depend on the processing

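No call of a named member reversed its direction under any alternative run, while counts of members have no direction to reverse. For the calls of named members in the main fit, 3188 values under the alternatives kept their side of the threshold and 275 did not. Many of these values come from fits that left out a library of a group not compared. They therefore do not measure how far a call rests on its own libraries. The number of members called moved by more than 1.5 times as follows. In U.SK against U.NK of “1511” (22) it was 10 with a replicate block, 40 by limma voom with quality weights and 0 in a fit of the genotype's own 12 libraries. In Sp.SK against Sp.NK of “1601” (15) it was 9 with the block, 24 by DESeq2, 37 by voom and 24 in the 12 libraries. In Sp.SK against U.SK of “1601” (19) it was 29 by DESeq2, 56 by voom and 29 in the 12 libraries. In Sp.NK against U.NK it was 7 with the block, 9 by DESeq2, 24 by voom and 0 in the 12 libraries for “1511” (4), and 16 by voom and 8 in the 12 libraries for “1601” (4). Between genotypes voom called 62 on U.NK, 38 on Sp.SK and 38 on Sp.NK. The difference between genotypes in U.SK against U.NK (1) was called in 3 members without the filter, 0 with the block, 11 by DESeq2 and 22 by voom, that in Sp.SK against Sp.NK (0) in 1 by DESeq2 and 2 by voom, and that in Sp.NK against U.NK (1) in 3 by DESeq2 and 20 by voom. DESeq2 size factors, and keeping only members with no other domain, moved no count by over 1.5 times. The causes were not tested.

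Leaving out each of the 24 libraries gave 2 to 32 called members in U.SK against U.NK of “1511”, 1 to 19 in Sp.SK against Sp.NK of “1601”, 23 to 46 and 8 to 22 in Sp.SK against U.SK of “1511” and “1601”, and 0 to 16 and 2 to 6 in Sp.NK against U.NK. Between genotypes it gave 53 to 65 on U.SK, 20 to 34 on U.NK, 18 to 28 on Sp.SK and 13 to 24 on Sp.NK. For the differences between genotypes it gave 0 to 18 in U.SK against U.NK, 22 to 44 in Sp.SK against U.SK and 0 to 9 in Sp.NK against U.NK, and 0 in Sp.SK against Sp.NK.

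The labels do not say that a replicate number marks a shared box or day, and deviations of same-numbered libraries correlated between -0.29 and 0.49, so the replicate block was only an alternative. It changed no other count by over 1.5 times. With 3 libraries a group and the spread of members above that of other genes, smaller differences were not detectable. Members at under 1 FPKM rest on few reads, and setting members without reads in a group at their bound moved no median by more than 0.0457. Like copies may share reads.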
